A study of Mus musculus with 4 samples.

Results

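Upper and lower molar tooth germs that lacked Msx1 were compared directly, with 1 library of laser-captured mesenchyme from each jaw, which is 2 of the 4 libraries of the study. Both were selected by their labels, Msx1-/- with upper (maxillary) or lower (mandibular) molar, and all 22072 gene names in their tables were examined. The embryos were mouse, at embryonic day 14 (E14), on what the labels call a mixed background. The remaining 2 libraries were the same tissues of Msx1+/- controls, so every library of the study carries at least 1 Msx1 mutant allele, although the series title calls the controls wild type. Molar mesenchyme was cut from frozen head sections with a laser, and RNA from 3 pairs of control and mutant samples was pooled according to the design text. The labels do not name the Msx1 allele or the part of the gene it removes, and do not say whether the upper and lower germs came from the same embryos. Each side of the comparison was therefore 1 pooled library without replicates, and no difference within the mutant pair can be set against a replicate error.

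Teeth of both jaws form from an epithelium and a mesenchyme that descends from the cranial neural crest. Msx1 is a homeobox transcription factor of that mesenchyme, and mice without it stop tooth development at the bud stage. The maxillary and mandibular mesenchyme receive different positional programs before teeth start. Endothelin signalling and the genes Dlx5 and Dlx6 specify the mandibular arch, while Pou3f3 is typical of the maxillary side. Dlx2 is active throughout the arches. The comparison addresses which genes separate the jaws when Msx1 is missing.

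Values are FPKM, fragments per kilobase of transcript scaled to the library's mapped fragments, summed over the transcripts of a gene and rescaled within each genotype by the median of ratios, so levels are compared only within a genotype. A difference is the upper minus the lower value of log2(FPKM + 1), a scale that understates changes of weakly expressed genes. Msx1 itself was measured at 112 FPKM in the upper and 97 FPKM in the lower mutant molar, a difference of 0.21, and at 176 and 178 FPKM in the control pair. Msx1 RNA was therefore present in the libraries labelled Msx1-/-, and since the removed part of the gene is not given, its level does not check the labels. Summed transcript coverage was 395 megabases in the upper and 264 megabases in the lower mutant library, against 410 and 324 megabases in the controls. Between 10201 and 10706 genes reached 1 FPKM per library. Mesenchymal transcription factors were present in both mutant libraries, with Prrx1 at 145 FPKM in the upper and 132 FPKM in the lower, and Pax9 at 60.5 and 74.4 FPKM.

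Among the 10487 genes that averaged 1 FPKM or more over the mutant pair, 142 were higher in the upper molar by a difference of at least 1 (1.35% of those tested) and 132 were lower by as much (1.26%), 2.61% in either direction. The bulk of the genes differed little, and the central 95% lay between differences of -0.78 and 0.81, with a standard deviation of 0.43 over genes. Small RNA names, of which 85 were tested, contributed 16 to the higher genes and 30 to the lower ones. The share past a difference of 1 was between 2.25% and 3.37% at all mean levels except from 50 to 100 FPKM, where it was 7.25%. Just inside the threshold lay Nrp2, a semaphorin and Vegf co-receptor, with a difference of 1.003, and Mrpl55, a mitochondrial ribosomal protein gene, at -1.01. Just outside it were Cdh24 at 0.998 and Abcb8 at -0.995. Without the rescaling, 356 genes were higher and only 70 were lower, because the median of all genes then stood at 0.27, so the balance of the directions depends on the scaling.

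**Figure D1:**
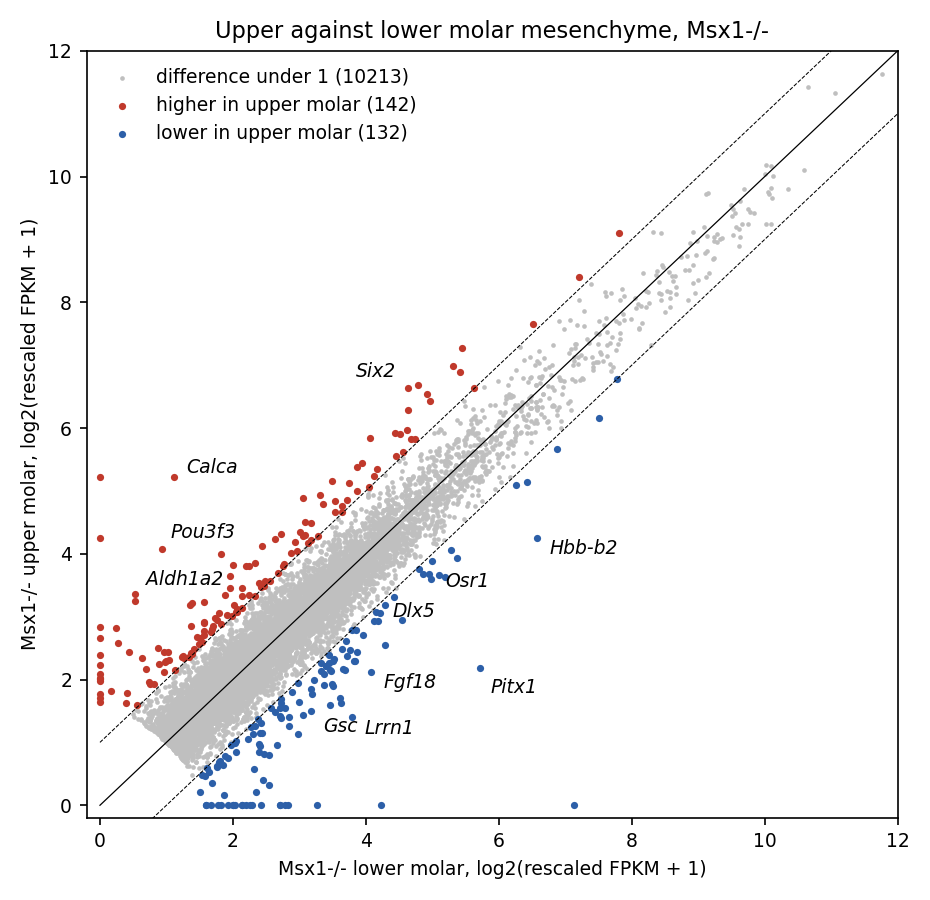
Each point is 1 of 10487 genes, with log2(rescaled FPKM + 1) in the mutant lower molar on the horizontal axis and in the mutant upper molar on the vertical axis. Dashed lines mark a difference of 1; 142 genes lie above the upper line and 132 below the lower line, with Calca, Pou3f3 and Pitx1 far from the diagonal.

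The clearest upper-molar genes lay side by side on chromosome 1. Pou3f3, a POU-domain transcription factor, was measured at 15.9 FPKM in the mutant upper molar and 0.91 FPKM in the mutant lower molar, a difference of 3.14 or 17.5-fold. In the control pair it stood at 33.5 and 2.92 FPKM, again a difference of 3.14. The upper library was the high one and the lower library the low one in each genotype. The noncoding gene 2610017I09Rik, also called Pantr1, ends 2320 bases before the start of Pou3f3 in the coordinates of build mm9 (chr1:42705045-42751670, with Pou3f3 at chr1:42753991-42757054). It had 14.9 and 2.52 FPKM in the mutant upper and lower molar, a difference of 2.17, and a control difference of 2.16. The transcript 2900092D14Rik begins 126 bases after the end of Pou3f3 (chr1:42757181-42760021), and had 6.03 and 0.187 FPKM, a difference of 2.57, with 2.73 in the controls. All 3 neighbours were thus higher in the upper molar in both genotypes. The labels do not say that the libraries keep strand, so reads of overlapping or antisense transcripts at this locus were not told apart.

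The 250 bases before the annotated starts of 3 genes are shown, from RefSeq on build GRCm38.p6: Pou3f3 (chr1:42695518-42695767, plus strand) as the leading upper-molar gene, Gsc (chr12:104473237-104473486, minus strand) as a lower-molar gene, and Aldh1a2 (chr9:71215539-71215788, plus strand) as a gene with a large difference in the mutants. They were searched on both strands for the octamer ATGCAAAT of POU factors, the letters TAATCC of Pitx factors and the homeodomain letters TAATTA. Capitals mark a match.
Pou3f3: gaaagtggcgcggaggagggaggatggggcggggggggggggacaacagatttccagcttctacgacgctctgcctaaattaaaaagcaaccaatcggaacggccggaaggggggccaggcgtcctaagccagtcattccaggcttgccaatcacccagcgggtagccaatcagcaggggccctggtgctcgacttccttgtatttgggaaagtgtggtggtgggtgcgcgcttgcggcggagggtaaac
Gsc: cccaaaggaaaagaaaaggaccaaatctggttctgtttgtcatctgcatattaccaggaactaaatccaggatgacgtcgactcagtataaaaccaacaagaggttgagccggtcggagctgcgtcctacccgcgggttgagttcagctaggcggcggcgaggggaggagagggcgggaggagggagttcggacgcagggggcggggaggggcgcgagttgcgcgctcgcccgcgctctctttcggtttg
Aldh1a2: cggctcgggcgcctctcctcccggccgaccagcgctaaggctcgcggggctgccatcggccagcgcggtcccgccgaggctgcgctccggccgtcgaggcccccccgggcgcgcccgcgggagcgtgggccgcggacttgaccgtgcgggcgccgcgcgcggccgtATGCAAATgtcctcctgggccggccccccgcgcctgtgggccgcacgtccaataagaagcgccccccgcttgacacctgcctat
The windows of Pou3f3 and Gsc held none of the 3 motifs, and that of Aldh1a2 held the octamer once. Windows of Calca, Six2, Dlx2, Pla2g7, Fgf18 and Lrrn1, not shown, were searched too and held none of the 3 motifs. Over all 27025 upstream windows of this length, 1.61% held the octamer, 6.38% TAATCC and 4.90% TAATTA. Among windows of genes tested here, the octamer stood in 1.18%, and in 1 of 70 windows of higher genes and 1 of 64 windows of lower genes. A match describes the letters and is not evidence of binding.

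The lower molar was marked by homeobox genes of the mandibular arch. Pitx1 was measured at 3.54 FPKM in the mutant upper and 51.5 FPKM in the mutant lower molar, a difference of -3.53 or 14.6-fold. Its control values were 1.78 and 18.3 FPKM, a difference of -2.79. Gsc, the goosecoid transcription factor, had 1.83 and 8.02 FPKM in the mutant pair, a difference of -1.67, and 0.684 and 4.42 FPKM in the control pair, a difference of -1.69. The linked genes Dlx6 and Dlx5, which lie 9834 bases apart on chromosome 6, followed the same direction. Dlx5 had 6.61 and 16.5 FPKM (difference -1.20) in the mutants and 6.88 and 27.0 FPKM (-1.83) in the controls. Dlx6 was weakly expressed, at 0.948 and 2.93 FPKM (-1.01) in the mutants and 0.716 and 4.39 FPKM (-1.65) in the controls. For all of these genes the lower library was the higher one in each genotype. The Dlx5 and Dlx6 differences were no longer past 1 with a pseudocount of 5 or without rescaling. The jaw difference shared by both genotypes was not called by limma for Dlx5 (adjusted p = 0.216) or Dlx6 (adjusted p = 0.241).

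Of 18 genes listed for mandibular identity, 9 were measured in the mutants, of which 4 were lower in the upper molar (Pitx1, Gsc, Dlx5 and Dlx6) and 2 were higher, with a median difference of -0.64. Counts for this and the following lists stand beside 1.35% higher and 1.26% lower over all tested genes. The median over all tested genes is set near 0 by the rescaling. The 2 in the opposite direction were the forkhead genes Foxf1a, at 24.4 and 10.6 FPKM (1.13), and Foxf2, at 4.07 and 0.558 FPKM (1.70). Their control differences were -0.21 and 0.37. Ednra, the receptor for endothelin in the arch mesenchyme, had 21.8 and 34.6 FPKM, a difference of -0.64 that was not past 1. Hand1 and Nkx3-2 were listed at 0 in both mutant libraries.

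Of 16 genes listed for maxillary identity, 14 were measured, of which 2 were higher in the upper molar (Pou3f3 and Dlx2) and none lower, with a median of 0.42. Dlx2, a homeobox gene active throughout the arches, had 13.1 FPKM in the mutant upper and 3.00 FPKM in the mutant lower molar, a difference of 1.82. The control pair had 58.4 and 33.4 FPKM, a difference of 0.79. Dlx1, its neighbour in the genome, had 15.1 and 10.9 FPKM, a difference of 0.44 in the mutants. Dlx2 thus had a positive difference and Dlx5 and Dlx6 a negative one in both genotypes, although the Dlx2 difference was past 1 in the mutants and not in the controls. Dlx3 did not keep its sign: it had 1.11 and 2.22 FPKM (-0.61) in the mutants and 57.6 and 11.4 FPKM (2.24) in the controls.

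The jaw difference common to both genotypes was the part that could be tested, with limma on all 4 libraries, genotype as a second term and 1 residual degree of freedom. At a Benjamini-Hochberg adjusted p under 0.05 limma called 5 of 10624 genes higher in upper molar (0.0471%) and 2 lower (0.0188%). Pou3f3 had an estimate of 3.15 with a standard error of 0.18 and an adjusted p of 0.00711 by limma. 2900092D14Rik followed with 2.66 (limma adjusted p = 0.00767) and 2610017I09Rik with 2.16 (limma adjusted p = 0.0178). Pla2g7, a secreted phospholipase that breaks down platelet-activating factor, had an estimate of 2.08 (limma adjusted p = 0.0443). The fifth higher gene was Mir5122, an entry of 89 bases whose FPKM is uncertain for its length. Pitx1, at -3.16 with a standard error of 0.24 (limma adjusted p = 0.0163), and Gsc, at -1.67 (limma adjusted p = 0.0443), were lower. Pou3f3 and 2610017I09Rik were called in all 5 other limma settings tried. Pitx1 was not called with a pseudocount of 5 (limma adjusted p = 0.0642), and Gsc was not called with that pseudocount (0.150) or without the mean-variance trend (0.0652). Pla2g7 was called only without rescaling among those settings, with limma adjusted p from 0.0534 to 0.170 in the other 4. A gene's own spread in this model comes from the difference between the genotypes' jaw differences, with 1 residual degree of freedom. limma combined it with a spread estimated from other genes, at a median of 5.73 prior degrees of freedom. Most of the weight in each standard error thus lay on other genes and not on repeats of that gene. The test speaks of the jaw difference shared by both genotypes and not of the mutant pair alone.

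**Figure D2:**
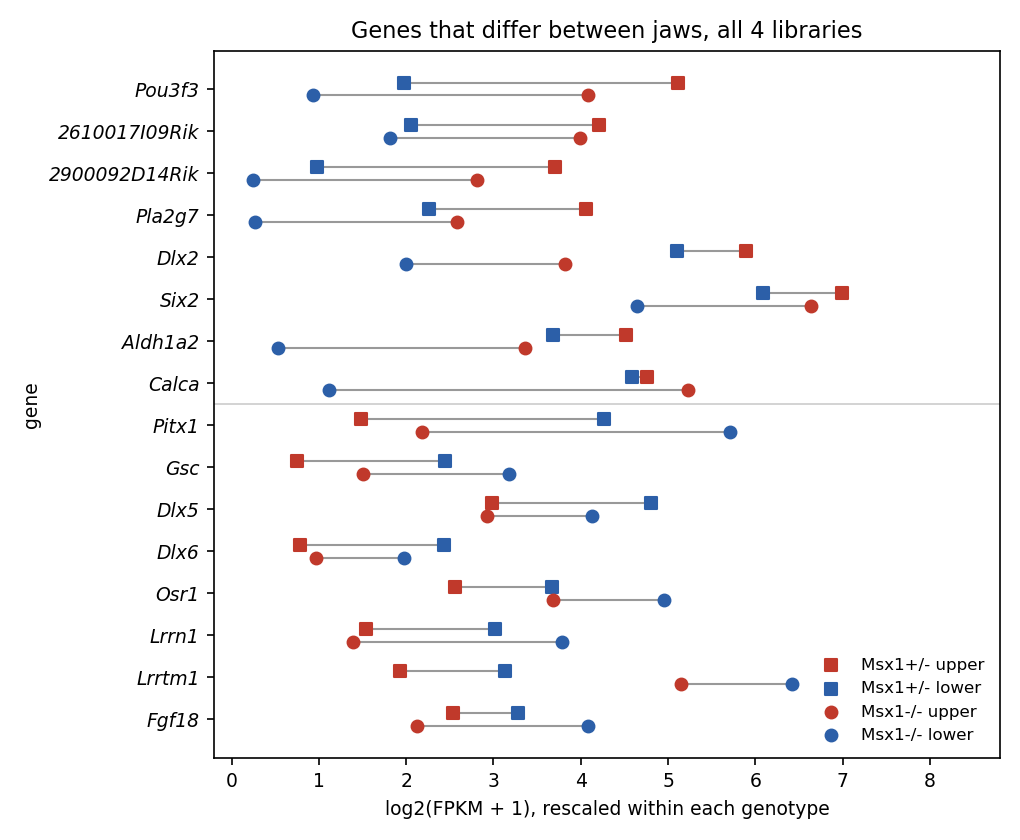
Points give log2(FPKM + 1) of 16 genes in the 4 libraries, rescaled within each genotype, with squares for Msx1+/-, circles for Msx1-/-, red for upper and blue for lower molar. The gap is alike in both genotypes for Pou3f3 (3.14 in each), while for Calca it is 4.11 in the mutants and 0.16 in the controls.

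Further genes passed a difference of 1 in the same direction in both genotypes without being called by limma. Among the higher genes, Parvb, a focal adhesion protein, had 6.47 and 1.96 FPKM in the mutants (1.33) and a control difference of 1.34. Gap43, a protein of growing axons, had 16.4 and 4.40 FPKM (1.69, control 1.23), and Dhrs3, which reduces retinaldehyde, had 3.35 and 0.948 FPKM (1.16, control 1.10). Atp1b1, a subunit of the sodium pump, had differences of 1.48 and 1.03. Osr1, an odd-skipped zinc finger factor of the dental mesenchyme, was lower in upper molar in both pairs. It had 11.8 and 29.9 FPKM in the mutants (-1.27) and 4.88 and 11.8 FPKM in the controls (-1.12), with a limma adjusted p of 0.241. The leucine-rich repeat membrane protein genes Lrrn1 and Lrrtm1 had the same sign. Lrrn1 stood at 1.63 and 12.8 FPKM in the mutants (-2.39, control -1.48), and Lrrtm1 at 34.4 and 84.5 FPKM (-1.27, control -1.20).

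Most genes past 1 in the mutant pair were not past 1 in the control pair. Of the 142 higher genes, 15 were also higher in the control upper molar by at least 1, which is 10.6% of the mutant genes and 7.04% of the 213 control genes (2.01% of genes tested in the controls). Of the 132 lower genes, 8 were also lower in the controls, which is 6.06% of the mutant genes and 19.0% of the 42 control genes (0.396%). Of the mutant genes, 13 higher and 36 lower ones were below the level needed for testing in the controls. Over those tested the shares were 11.6% of 129 and 8.33% of 96. The control difference was past 1 with the opposite sign for 9 lower genes, against 8 with the same sign. For higher genes these counts were 2 and 15. In either direction 2.41% of the genes tested in the controls were past 1. The median control difference was 0.21 over the higher and -0.16 over the lower genes, and 90 and 83 of them lay within 0.5 of 0 in the controls. Over 10103 genes measured in both pairs, the mutant and control differences had a Pearson correlation of 0.15 and a Spearman correlation of 0.15. That is a description across genes, which are not independent replicates. Over the genes tested in each pair, the difference had a Spearman correlation with transcript length of 0.10 in the mutants and 0.35 in the controls. The part of transcript length in how the 2 pairs compare was not tested. With all 4 libraries on a common scale, the mutant lower molar stood at least 1 below each of the other 3 libraries in 63 of the 142 higher genes. It stood at least 1 above each of them in 76 of the 132 lower genes. The mutant upper molar stood at least 1 above the others in 15 and at least 1 below in 8. The mutant lower library thus stood apart in 139 of the 274 genes past 1. These genes were chosen for a difference between the mutant libraries, which favours a mutant library over a control one standing apart. The same count over all tested genes was not made. The mutant lower library also had the least summed transcript coverage of the 4, at 264 megabases. Its coverage per FPKM, which follows mapped depth, was 0.924, above the 0.812 of the control lower library. The part of depth or of this library's preparation in these 139 genes was not tested.

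**Figure D3:**
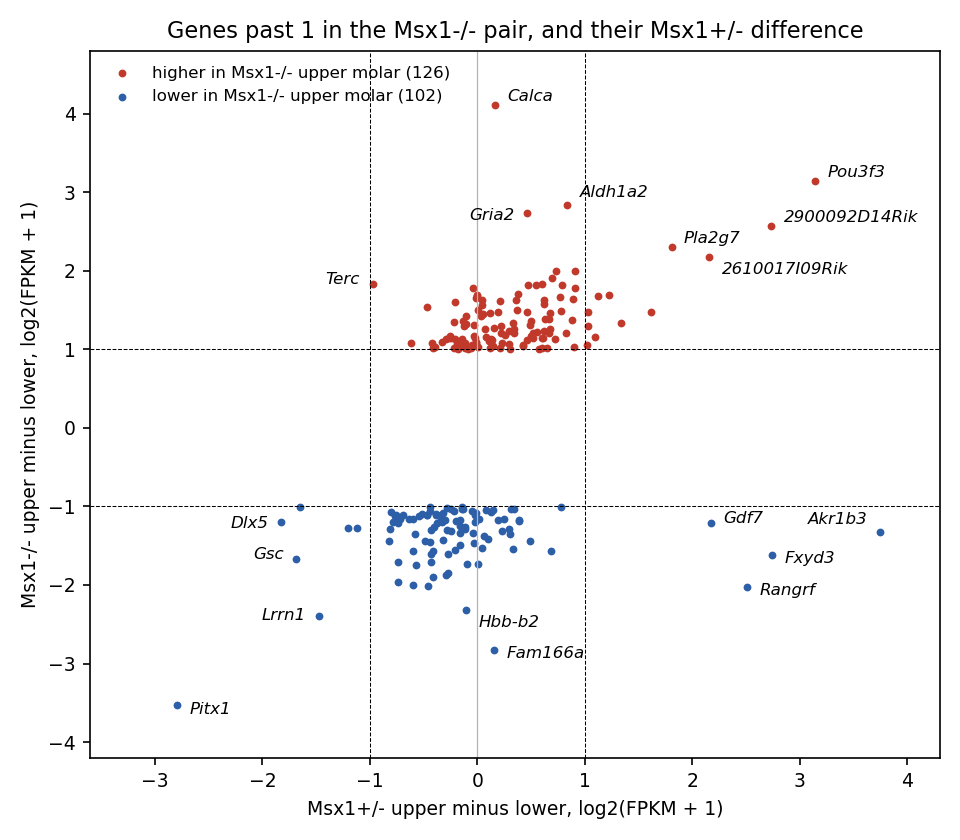
Each point is 1 of the 126 higher (red) or 102 lower (blue) genes of the mutant pair without small RNA names, with its control difference on the horizontal axis and its mutant difference on the vertical axis, both upper minus lower of log2(FPKM + 1). Most points lie between the dashed lines at -1 and 1 of the control axis, and Pou3f3 and Pitx1 lie far out in the same direction in both genotypes.

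The largest difference of a protein-coding gene was that of Calca, which encodes calcitonin and the neuropeptide CGRP. It was measured at 36.3 FPKM in the mutant upper and 1.17 FPKM in the mutant lower molar, a difference of 4.11, against 26.0 and 23.1 FPKM in the controls, a difference of 0.16. Of its 2 transcript entries, the longer held 34.9 of the mutant upper and 1.09 of the mutant lower FPKM. The low value of the mutant lower molar had no counterpart in the control pair. Gria2, a glutamate receptor subunit, had 8.54 and 0.437 FPKM (2.73) in the mutants and a control difference of 0.46. These genes were past 1 in the mutants and not in the controls, and the difference between the genotypes was not tested.

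Retinoic acid, a morphogen made from vitamin A, is handled by 13 measured genes, of which 2 were higher in upper molar and 1 was lower, with a median of 0.20 (all tested genes, 1.35% higher and 1.26% lower). Aldh1a2, the enzyme that makes retinoic acid and whose upstream window is given above, had 9.31 FPKM in the mutant upper and 0.447 FPKM in the mutant lower molar, a difference of 2.83. In the controls it had 21.9 and 11.9 FPKM, a difference of 0.83. Dhrs3 was the other higher gene. Crabp2, a retinoic acid carrier, was lower at 14.3 and 40.5 FPKM (-1.44, control -0.82). The related carrier Crabp1 had 24.7 and 14.96 FPKM (0.69) in the mutants and a control difference of -1.05. The retinoic acid receptor Rara and the degrading enzyme Cyp26b1 had differences of 0.41 and 0.20.

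Among 27 measured transcription factors of the dental mesenchyme, 2 were higher in upper molar, 1 was lower, and the median was 0.29, against 2.61% of all tested genes past 1 in either direction. Six2, a homeobox gene, had 98.6 FPKM in the mutant upper and 23.9 FPKM in the mutant lower molar, a difference of 1.997. In the controls it had 126 and 66.8 FPKM, a difference of 0.91. Snai1, a zinc finger repressor, was higher at 6.71 and 2.40 FPKM (1.18, control 0.26), and Osr1 was the lower one. Runx2, which directs bone formation, had 23.5 and 13.3 FPKM, a difference of 0.77. Of 15 Hox genes, which are silent in the first arch, 0 reached the level needed for testing, and their summed FPKM was 0.027 in the upper and 0.042 in the lower mutant molar.

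Fgf ligands, receptors and targets numbered 17 measured genes, of which 2 were higher, 2 were lower and 14 had a negative sign, with a median of -0.31 (-0.05 without rescaling), where 1.35% of all tested genes were higher and 1.26% lower. The ligand Fgf18 had 3.36 FPKM in the mutant upper and 15.9 FPKM in the mutant lower molar (-1.96), and its control difference was -0.74. Fgf10, a ligand that mesenchyme sends to epithelium, had 3.25 and 9.38 FPKM (-1.29), against -0.12 in the controls. The higher genes were Fgf13, an intracellular relative of the ligands, at 7.16 and 2.78 FPKM (1.11), and Dusp6, a phosphatase induced by Fgf signalling, at 10.1 and 4.37 FPKM (1.04). The other targets did not share the direction of Dusp6: Spry1, Spry2 and Spry4 had differences of -0.65, -0.56 and -0.48, none past 1.

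Of 22 measured genes of Bmp signalling, 3 were higher and 1 was lower, with a median of 0.21; over all tested genes 1.35% were higher and 1.26% lower. The higher genes included the extracellular modulator Bmper, at 10.6 and 4.26 FPKM (1.14), and the target Id4, at 7.41 and 3.18 FPKM (1.01). The ligand Gdf7 was lower. The secreted Bmp antagonist Nbl1, described below, was not in this list and was also lower (-1.90). Bmp4, the ligand of the dental mesenchyme that depends on Msx1, had 15.6 and 22.8 FPKM (-0.51), not past 1. In the hedgehog pathway 1 of 10 measured genes was higher and none lower, a single gene that is no result about the pathway: the receptor and target Ptch1 at 18.6 and 7.50 FPKM (1.21, control 0.34). Gli1, the other direct target, had 11.9 and 6.82 FPKM (0.72). None of 25 measured Wnt ligands, receptors and targets was past 1 in either direction, and their median was 0.04. Sostdc1, a secreted antagonist of Wnt and Bmp, was the 1 of 10 measured Wnt antagonists past 1, at 61.7 and 23.4 FPKM (1.36, control -0.13).

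**Figure D4:**
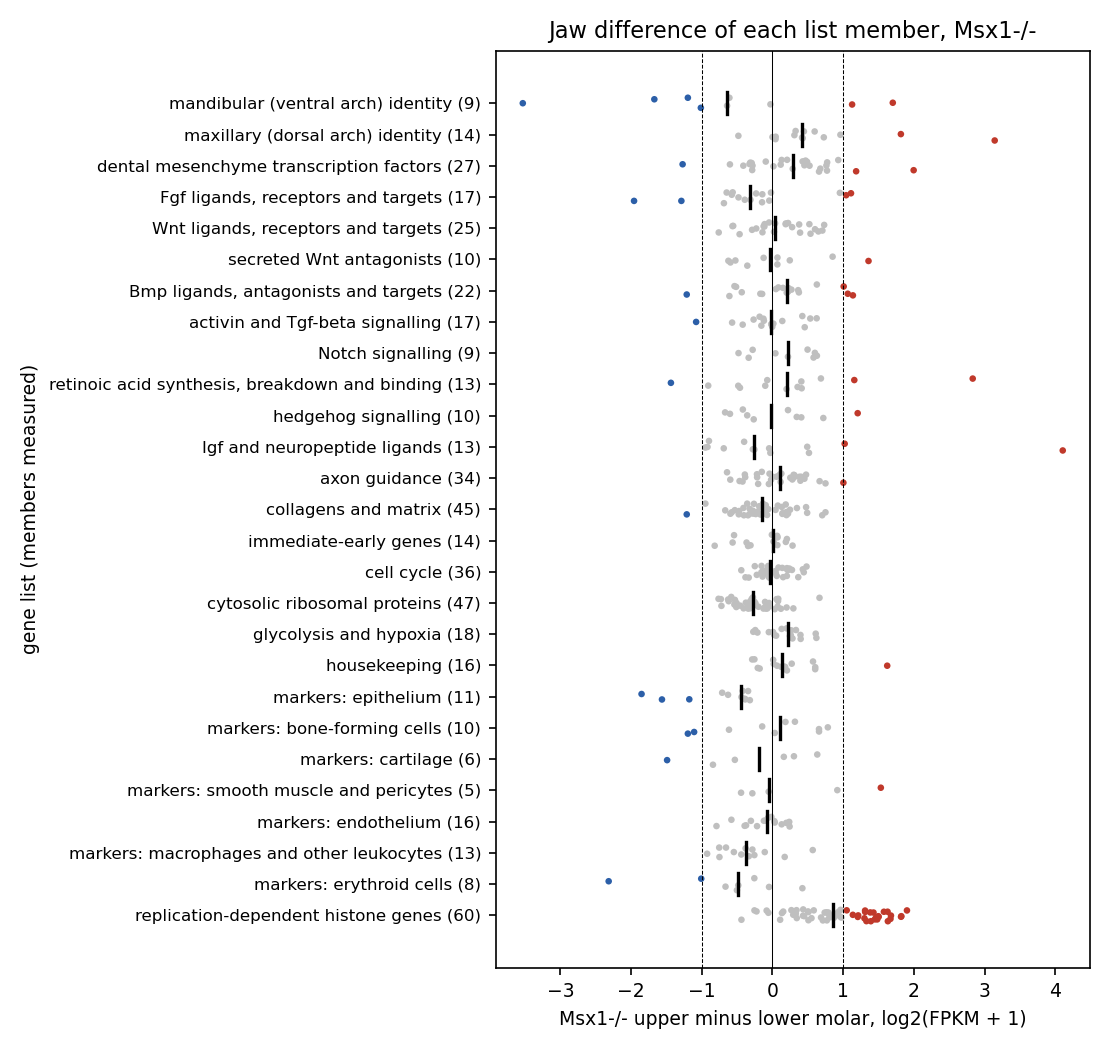
Each point is the mutant upper minus lower difference of log2(FPKM + 1) of 1 measured member of the gene list named on the vertical axis, red or blue where past the dashed lines at 1 and -1 and grey otherwise, and black bars mark list medians. The histone genes sit to the right with a median of 0.86, whereas the 36 cell cycle genes lie within 0.5 of 0.

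In the other pathways the counts past 1 were small, and are given beside the 2.61% of all tested genes past 1 in either direction. The 9 Notch genes, the 14 immediate-early genes, the 36 cell cycle genes and the 18 genes of glycolysis and hypoxia had 0 past 1 in either direction. Of 45 measured collagens and matrix genes 1 was lower, Lum, a leucine-rich matrix proteoglycan, at 49.5 and 116 FPKM (-1.21), and Col1a1 had 181 and 226 FPKM (-0.32). Of 17 activin and Tgf-beta genes 1 was lower, Tgfbi, a matrix protein induced by Tgf-beta, at 7.42 and 16.8 FPKM (-1.08). In the list of Igf genes and neuropeptides 2 of 13 were higher, Calca and Igfbp5, which binds Igf, at 24.2 and 11.4 FPKM (1.02). Nrp2 was the 1 of 34 axon guidance genes past 1.

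Lower genes with large differences also came from outside the signalling lists. Spr, the last enzyme of tetrahydrobiopterin synthesis, had 2.08 and 11.4 FPKM in the mutant upper and lower molar (-2.01), and Nbl1, a secreted Bmp antagonist, had 2.26 and 11.2 FPKM (-1.90). Cav1, the coat protein of caveolae, had 4.87 and 18.6 FPKM (-1.74) and a control difference of 0.00. Slc5a7, the choline transporter, had 0.940 and 5.35 FPKM (-1.71). The metal-binding proteins Mt1 and Mt2, whose genes are 5521 bases apart on chromosome 8, were both lower, Mt1 at 2.01 and 10.02 FPKM (-1.87, control -0.29) and Mt2 at 0.791 and 3.12 FPKM (-1.20, control -0.78). Fam166a was at 6.09 FPKM in the mutant lower and about 0 in the mutant upper library, so no fold is given.

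Replication-dependent histone genes, which supply histones during DNA synthesis and whose RNA ends in a stem-loop in place of a poly(A) tail, differed as a group. Of 60 measured, 24 were higher in the mutant upper molar and 0 lower, with a median of 0.86. In the controls 3 were higher and 0 lower, with a median of 0.36. Their summed level was 3117 FPKM in the upper and 1521 FPKM in the lower mutant molar, and 4465 and 3056 FPKM in the controls. With the 4 libraries on a common scale, the mutant lower library was the lowest for 52 of the 60. Hist1h2bn, for example, had 101 and 26.4 FPKM (1.90, control 0.69), and Hist1h2ak had 153 and 42.7 FPKM (1.82, control 0.47). Hist2h4, 1 of the 3 past 1 in both genotypes, had 125 and 38.5 FPKM (1.68, control 1.12). The 3 measured noncoding RNAs without a poly(A) tail that were looked up, a choice made after values were seen, were also higher in the mutant upper molar. Rmrp and Rpph1, the RNA parts of the endoribonucleases MRP and P, had 56.5 and 15.7 FPKM (1.79, control -0.04) and 77.0 and 23.8 FPKM (1.65, control -0.01). Terc, the telomerase RNA, had 8.11 and 1.57 FPKM (1.83, control -0.97). Small RNA names, whose FPKM is uncertain for their length, did not share that direction, with 16 higher and 30 lower, among them the small nucleolar RNA Snord99 at 15.7 and 37.9 FPKM (-1.22). Cell cycle genes had a median of -0.03, and the proliferation genes Top2a and Ube2c had differences of -0.16 and -0.22. These RNAs are short. Of 221 genes whose longest transcript was at most 500 bases, 69 were past 1 (31.2%), against 205 of 10266 longer genes (1.997%). The 221 include short histone genes and small RNA names themselves, so their share is no separate background for the histones. The part of proliferation, transcript length, RNA quality or library preparation in the histone difference was not tested.

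**Figure D5:**
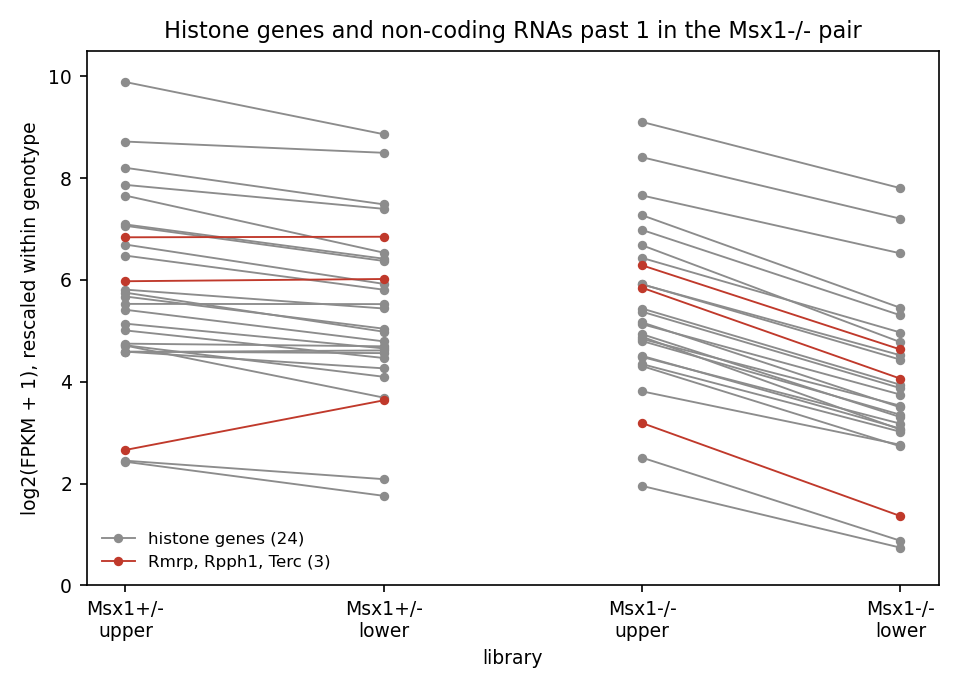
Lines join the log2(FPKM + 1) values of the upper and the lower molar within each genotype, for the 24 histone genes (grey) and 3 noncoding RNAs (red) that were higher in the mutant upper molar by at least 1. All 27 fall to the right in the mutant pair by selection, while in the controls Terc is higher in the lower molar and Rmrp and Rpph1 are level.

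Markers of neighbouring cell types were read for the tissue each library could have included. In bulk samples, fewer cells of a type and less RNA per cell cannot be told apart. All 11 measured epithelial markers had a negative sign, with a median of -0.44 (-0.25 without rescaling), and 3 were past -1. Their summed level was 51.3 FPKM in the upper and 92.8 FPKM in the lower mutant molar, and 31.9 and 52.7 FPKM in the controls, so the lower molar library was the higher of the pair in both genotypes. Krt5, a keratin of basal epithelium, had 18.9 and 31.6 FPKM (-0.71), Krt15 had 2.80 and 10.2 FPKM (-1.56), and Perp, a desmosome protein, had 1.19 and 6.90 FPKM (-1.85). None of the 18 listed epithelial markers was under 0.05 FPKM in both mutant libraries. Their part in the genes lower in the upper molar was not tested.

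Erythroid markers had 0 higher and 2 lower of 8 measured, a median of -0.49 and summed levels of 562 FPKM in the upper and 913 FPKM in the lower mutant molar. Hbb-b2, an adult beta globin, had 18.1 and 94.1 FPKM (-2.32, control -0.10), and Hba-a1 had 108 and 219 FPKM (-1.01), whereas Hbb-b1 had 81.2 and 60.3 FPKM (0.42). The globin genes are near-identical copies, so reads may have been split between them. Macrophage and leukocyte markers had 0 past 1 of 13, a median of -0.38 and sums of 50.6 and 78.9 FPKM. Cartilage markers, with 3 positive and 3 negative differences among 6 measured and a median of -0.19, summed to 19.5 and 28.2 FPKM. Hapln1, a link protein of cartilage matrix, was lower at 3.49 and 11.6 FPKM (-1.49), and without it the sums were 16.0 and 16.6 FPKM. Smooth muscle markers, with 2 positive and 3 negative differences among 5 measured and a median of -0.05, summed to 27.2 and 16.5 FPKM. Acta2, smooth muscle actin, was higher at 13.5 and 4.02 FPKM (1.53, control -0.47), and without it the sums were 13.7 and 12.5 FPKM. Endothelial markers had 0 past 1 of 16, and sums of 72.7 and 83.4 FPKM. Bone-forming cell markers summed to 152 and 149 FPKM, with Dlx5 and Phex, an endopeptidase of bone cells (-1.11), lower. Of the 16 neuronal markers only Gap43 (higher) and Nefl, a neurofilament at 0.489 and 3.96 FPKM (-1.74), were measured, in opposite directions, and 6 were under 0.05 FPKM in both mutant libraries. Skeletal muscle markers were near the limit of detection, with Tnnt1 lower (-1.12) and 6 of 20 under 0.05 FPKM. Schwann cell and melanocyte markers summed to 19.6 and 30.4 FPKM, with 0 of 2 measured past 1.

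Both sexes' genes were present in each mutant library. Xist, the RNA of the inactive X, had 24.0 FPKM in the upper and 32.6 FPKM in the lower molar (-0.43). The Y-linked genes differed in sign, with Ddx3y at 1.99 and 1.42 FPKM (0.30) and Eif2s3y at 1.59 and 2.42 FPKM (-0.40). None was past 1. Cytosolic ribosomal protein genes, with 0 of 47 past 1, had a median of -0.28, which turned positive without rescaling. The signs of the medians for cell cycle, collagens, activin, hedgehog, Wnt antagonist, Igf and neuropeptide, endothelial, neuronal and smooth muscle genes also turned without rescaling. Without rescaling, Osr1, Lrrtm1, Lum, Tgfbi, Gdf7, Hba-a1, Krt18, Phex and Tnnt1 were no longer past -1. With only the largest transcript of each gene, Dhrs3 and Nrp2 were no longer past 1.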

How the data were processed

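RNA was sequenced from 4 libraries, 1 per genotype and jaw. Per the labels' protocols, column-purified RNA was made into cDNA by NuGEN's Ovation RNA-Seq v2 kit. Per the submitters' processing notes, the tools were Bowtie 0.12.7 and TopHat 1.4.1 with build mm9. Per the file headers, the deposited tables are of Cufflinks form (version not given in the sources used here) and hold FPKM and a coverage signal for 28107 transcript entries, made by the authors. Coverage was FPKM times a constant per library (1.05, 0.812, 1.09 and 0.924 for control upper and lower and mutant upper and lower), and read counts were not recovered, so no interval is given.

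FPKM was summed per gene name, leaving out 66 names with a FAIL status, and divided by median-of-ratios factors within each pair (1.13 and 0.888 in the mutants). Genes needed a mean of 1 FPKM, and the pseudocount was 1. Differences used pandas 2.3.3, and limma 3.58.1 (trend, Benjamini-Hochberg) was fitted to all 4 libraries as jaw plus genotype. Both were tested on simulated data with a jaw effect made alike in both genotypes and the same noise level for every gene. That checks the code and does not measure error rates in these libraries. The members and the gene lists (703 of 715 symbols found) were chosen with earlier results of these data known, and the lists of histones, RNAs without a poly(A) tail, Dlx genes, metallothioneins and the Pou3f3 locus were added after seeing values. Genes were named by rule: the 12 largest each way with at least 5 FPKM in the higher library, the 10 largest each way in both genotypes, up to 8 opposite each way, and up to 6 members past 1 and the 2 most abundant of each list. Other genes named, such as Hbb-b1, the Spry genes and Bmp4, were chosen after their values were seen. Some results that the rule would name are not reported here. The authors' coordinates had 1 added to the start. Alternatives were other pseudocounts, filters, scalings and transcript choices, and leaving out small RNA names or short transcripts.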

Additional observations from a re-analysis of the deposited data

Results flagged for a closer look

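With small RNA names left out, 4 genes lay past 1 in opposite directions in the mutant and the control pair, and this difference between the genotypes was not tested. With small RNA names included, 9 genes were lower in the mutant and higher in the control upper molar, and 2 were the reverse. Akr1b3, an aldose reductase, was -1.33 in the mutants (2.60 FPKM upper, 8.02 FPKM lower) and 3.74 in the controls, where the lower library was listed at about 0. Fxyd3, a regulator of the sodium pump, was -1.62 in the mutants (1.72 and 7.33 FPKM) and 2.74 in the controls (20.8 and 2.28 FPKM). Gdf7, a Bmp family ligand, was -1.21 in the mutants (3.00 and 8.27 FPKM) and 2.17 in the controls (11.5 and 1.78 FPKM). Rangrf, a nucleotide release factor of Ran, was -2.02 in the mutants and 2.51 in the controls, with about 0 in the mutant upper and the control lower library and 3.07 and 4.70 FPKM in the others.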

How the results depend on the processing

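Main counts were 142 higher, 132 lower, 15 higher in both genotypes and 8 lower in both. They became 282, 244, 24 and 18 with a pseudocount of 0.1, and 47, 29, 6 and 2 with a pseudocount of 5. At a minimum mean of 5 FPKM they were 80, 60, 8 and 5. Without rescaling they were 356 and 70, with 3 lower in both. Leaving out transcripts up to 500 bases, an alternative chosen after seeing the data, left 8 higher in both. The cause of these shifts was not tested. The limma calls (5 higher, 2 lower) were 3 higher with a pseudocount of 0.1, 3 higher and 0 lower with 5 (365 lower at an unadjusted limma p under 0.05), 2 and 1 at a minimum mean of 5 FPKM, 82 and 31 without rescaling, and 1 lower without the mean-variance trend. Of 65 named genes past 1, 28 stayed past it in every alternative that kept them, the minimum of 5 FPKM left out 24, and 0 of the 65 changed direction. A pseudocount of 5 lost 34 of them and no rescaling 11. No paired analysis was possible because each genotype and jaw had 1 library and the labels carry no replicate numbers that could pair the libraries. With 1 library a side and read counts not recovered, low genes have the least certain differences.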
